A study of Mus musculus with 10 samples.

Results

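The genes described here are Pknox1, Pknox2, Meis1, Meis2, Meis3, Pbx2 and Pbx3, which encode transcription factors of the TALE homeobox class. They were chosen by name, as the rows whose Entrez ID belongs to one of these mouse symbols, and all 7 were found among the 27179 gene rows of the count table. All 7 also passed the filter on low counts that left 16018 genes for testing. The study sequenced RNA from cochleas of mice on postnatal day 8, from 5 libraries of genotype Pknox2-/- (called knockout below, after their label) and 5 of genotype Pknox2+/+ (wild type). No treatment is named, and the sources used here do not give the strain, the sex of the mice, the allele or the part of Pknox2 it removes. The series text calls the samples independent biological replicates. Whether tissue of several pups was pooled is not stated, and p-values set a difference between groups against the spread between these libraries.

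TALE proteins carry an extra loop of amino acids inside the homeodomain, the part of the protein that grips DNA. Pbx proteins bind DNA together with Hox proteins, and Meis and Pknox proteins (the latter also called Prep) bind Pbx proteins, hold them in the nucleus and add a DNA contact of their own. Meis and Pknox proteins can compete for the same Pbx partner, so the relative amounts of the family members are a common way to describe a tissue. The series title puts PKNOX2 forward as a key regulator in the cochlea of mammals, and the comparison asks what differs when both gene copies carry the knockout label. For the other family members, the question is whether their transcripts differ along with it.

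The stretch of each gene that encodes the recognition helix, the part of the homeodomain that lies in the DNA groove, shows how close the 7 genes are. It is printed because a count can be assigned to a paralog only where their sequences differ. Each line gives 60 bases of the longest coding transcript in GENCODE release M21, 5′ to 3′, with capitals at bases that differ from Pknox2.
Pknox2: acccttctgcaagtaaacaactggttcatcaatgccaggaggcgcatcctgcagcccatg
Pknox1: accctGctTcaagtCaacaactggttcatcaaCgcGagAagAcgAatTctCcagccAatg
Meis1: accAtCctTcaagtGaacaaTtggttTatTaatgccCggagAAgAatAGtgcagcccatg
Meis2: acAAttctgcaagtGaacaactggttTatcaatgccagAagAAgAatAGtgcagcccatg
Meis3: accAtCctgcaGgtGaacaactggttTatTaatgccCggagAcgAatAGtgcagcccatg
Pbx2: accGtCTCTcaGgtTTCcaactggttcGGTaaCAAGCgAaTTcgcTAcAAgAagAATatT
Pbx3: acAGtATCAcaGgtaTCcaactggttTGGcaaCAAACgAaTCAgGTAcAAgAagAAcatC

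Pknox1 differed from Pknox2 at 11 of the 60 bases, yet all 20 codons encode the same amino acids in both. The Meis genes differed from Pknox2 at 10 to 13 bases and matched it in 18 of 20 encoded amino acids. Pbx2 and Pbx3 differed from Pknox2 at 29 and 30 bases and matched in 9 of 20. Despite the shared protein sequence, the longest run of identical bases between the Pknox1 and Pknox2 transcripts was 18. The longest run between any pair of the 7 was 32 bases, between Meis1 and Meis2, and no pair shared a run of 50. The sources used here do not give the read length.

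All positions below are of the genome build GRCm38. Pknox2 (Entrez 208076) lies on the minus strand of chromosome 9 from 36890979 to 37147342 and its longest coding transcript has 13 exons. Pknox1 (Entrez 18771) lies on the plus strand of chromosome 17 from 31564722 to 31607693. Meis1 (Entrez 17268) lies on the minus strand of chromosome 11 from 18880428 to 19019651, Meis2 (Entrez 17536) on the minus strand of chromosome 2 from 115861264 to 116067537, and Meis3 (Entrez 17537) on the plus strand of chromosome 7 from 16174012 to 16186510. Pbx2 (Entrez 18515) lies on the plus strand of chromosome 17 from 34592259 to 34597400, and Pbx3 (Entrez 18516) on the minus strand of chromosome 2 from 34171457 to 34372045. These genes differ widely in span, since Pbx2 covers 5142 bases and Meis3 12499, whereas Pknox2 covers 256364. In GENCODE, 227 exonic bases of Pbx2 (6.24% of its merged exons) are shared with Gpsm3 on the same strand, which has a row of its own in the count table. Meis1 shares 1029 exonic bases (9.77%) with Gm37818 on the same strand and 896 (8.51%) with an antisense RNA. Pknox1 shares 155 (2.24%) with an antisense RNA. Gm37818 and these antisense RNAs have no row of their own in the count table. The sources used here do not say whether strand was used in counting, so antisense reads cannot be told apart from those of Meis1 and Pknox1.

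The libraries held 16.6 to 19.4 M counts. Markers of hair cells, supporting cells, fibrocytes and stria were all detected, with the hair cell genes Otof at 34.1 CPM and Pou4f3 at 6.96 CPM in wild type, where CPM is a count relative to its library's total, with a TMM correction for the make-up of the library. The libraries labelled knockout 2, 3 and 5 stood apart from the other 7 on the first principal component, with scores of 73.5, 41.2 and 45.1 against -42.3 to 2.78. Y-linked genes summed to 209 CPM in knockout 1 and to 0 to 11.3 CPM in the other knockout libraries, against 197 to 225 CPM in wild type 1 to 4 and 102 CPM in wild type 5. Apart from knockout 1, Y-linked expression thus followed the group label, and it can hardly be separated from genotype in any group comparison below. The 7 Schwann cell markers were lower in sum in every knockout library, at 8910 to 12207 CPM against 14330 to 18298 CPM in wild type. Sums over 8 supporting cell markers (1199 to 1548 CPM in wild type, 1382 to 1793 in knockout), 9 hair cell markers (135 to 156 and 121 to 183) and 8 markers of cerebellum, brainstem and choroid plexus (137 to 188 and 169 to 245) overlapped between the groups. The 8 osteoblast and osteoclast markers summed to 18215, 20660 and 19282 CPM in knockout 2, 3 and 5, above knockout 1 (14156), knockout 4 (15912) and wild type (11973 to 14354). Ribosomal protein genes took 4.65% to 5.99% of counts in knockout 2, 3 and 5 and 2.29% to 3.92% in the other 7 libraries. The 6 otic fibrocyte markers summed to 3081 to 4068 CPM in knockout and 3900 to 4708 in wild type, overlapping through knockout 2. The part that these differences have in the values below was not tested. In RNA of a whole organ, fewer cells of a type and less RNA per cell cannot be told apart.

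All 7 genes were expressed in the wild-type cochlea, with Pbx2 and Meis3 the highest per length and Meis1 and Meis2 the lowest. Levels are compared between genes as CPM per kilobase of the longest coding transcript. In wild type Pbx2, a broadly expressed Pbx gene, stood at 24.2 ± 1.19 CPM per kilobase (SD, n = 5 here and below), and Meis3, studied mainly in hindbrain patterning, at 15.3 ± 2.59. Pbx3, which mice need for breathing at birth, stood at 9.43 ± 1.13 CPM per kilobase. Below them came Pknox1 at 6.90 ± 0.608 and Pknox2 at 5.49 ± 0.539. Meis2, a regulator of neural crest and heart development, stood at 1.79 ± 0.445, and Meis1, known from blood stem cells and leukaemia, at 1.27 ± 0.154. Among the 14987 tested genes with a known length, Pbx2 exceeded 78.0%, Pknox2 exceeded 37.4% and Meis1 exceeded 13.3%.

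**Figure D1:**
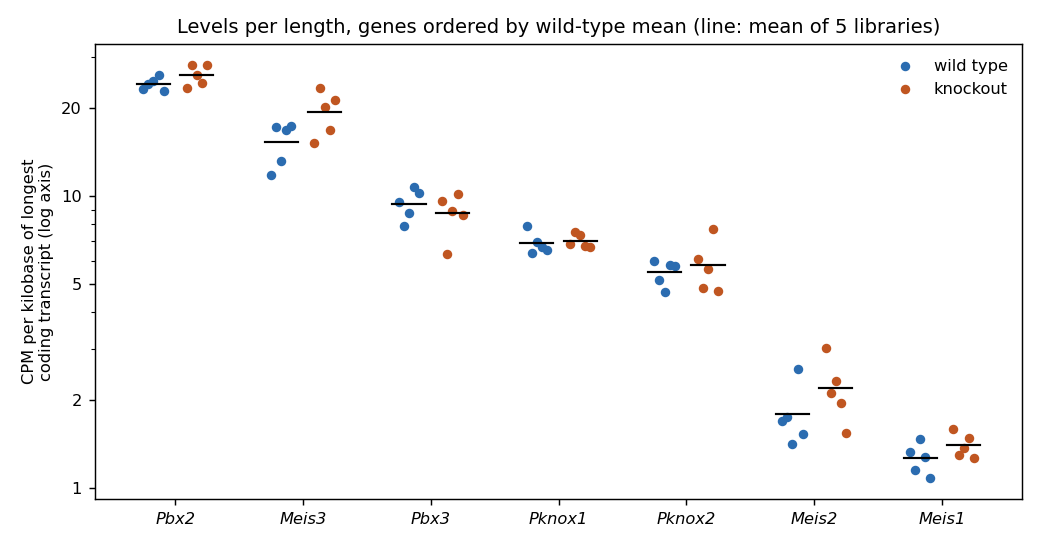
CPM per kilobase of the longest coding transcript (log axis) for the 7 genes in each library, with blue points for wild type, orange points for knockout and a line at the mean of 5. In both groups Pbx2 is highest and Meis3 next, while Meis2 and Meis1 lie lowest, with means of 1.79 and 1.27 CPM per kilobase in wild type.

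The wild-type order held in most libraries but not for every neighbour. Pbx2 exceeded Meis3, Meis3 exceeded Pbx3, Pknox1 exceeded Pknox2 and Pknox2 exceeded Meis2 in 5 of 5 wild-type libraries with no overlap of ranges. The ranges of Pbx3 and Pknox1 overlapped, and so did those of Meis2 and Meis1, where Meis2 was higher in 4 of 5 libraries. In knockout the order of the means was the same, but Pbx3 exceeded Pknox1, and Pknox1 exceeded Pknox2, in only 4 of 5 libraries each, with overlapping ranges. The exceptions were knockout 2 for Pbx3 (6.36 CPM per kilobase, against 7.51 for Pknox1) and knockout 4 for Pknox2. The order also rests on the length used. With all annotated exons of a gene merged, Pknox1 (4.23 CPM per kilobase in wild type) drew level with Pbx3 (4.22), and Meis1 (0.909) lay above Meis2 (0.554).

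Pknox2 transcripts were not lower in the libraries labelled knockout. Its level was 21.7, 18.8, 17.0, 21.1 and 21.01 CPM in wild type 1 to 5. In knockout 1 to 5 it was 22.1, 17.6, 20.5, 28.0 and 17.1 CPM. The groups overlapped: all but 2 knockout libraries lay within the wild-type range, and knockout 1 and knockout 4 lay above it. By edgeR's quasi-likelihood test, knockout minus wild type was 0.08 on the log2 scale (SE 0.146, adjusted p = 0.736), with a 95% interval from -0.24 to 0.40, or 0.849-fold to 1.32-fold. The value was 0.33 without knockout 2, 3 and 5 and -0.048 without knockout 4, and it was not called in either fit. A count over the whole gene can include transcripts that lack a part, but whether such transcripts were present was not tested. Counts per exon were not examined and the allele is unknown here, so this level alone cannot decide whether the labels are right. Directions given here rest on the labels.

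Pknox2 spread more widely over the knockout libraries, largely through knockout 4. The coefficient of variation was 20.8% in knockout and 9.81% in wild type, where counting error alone gives 5.28% and 5.32%. When single libraries were left out, a check chosen after seeing the data, the knockout value was 12.2% without knockout 4 and the wild-type value 6.15% without wild type 3. The lowest knockout count, 285 reads in knockout 5, has a 95% exact Poisson interval of 253 to 320 reads, which covers counting error only. The highest count was 494 reads, in knockout 4. The difference in spread between the groups was not tested.

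**Figure D2:**
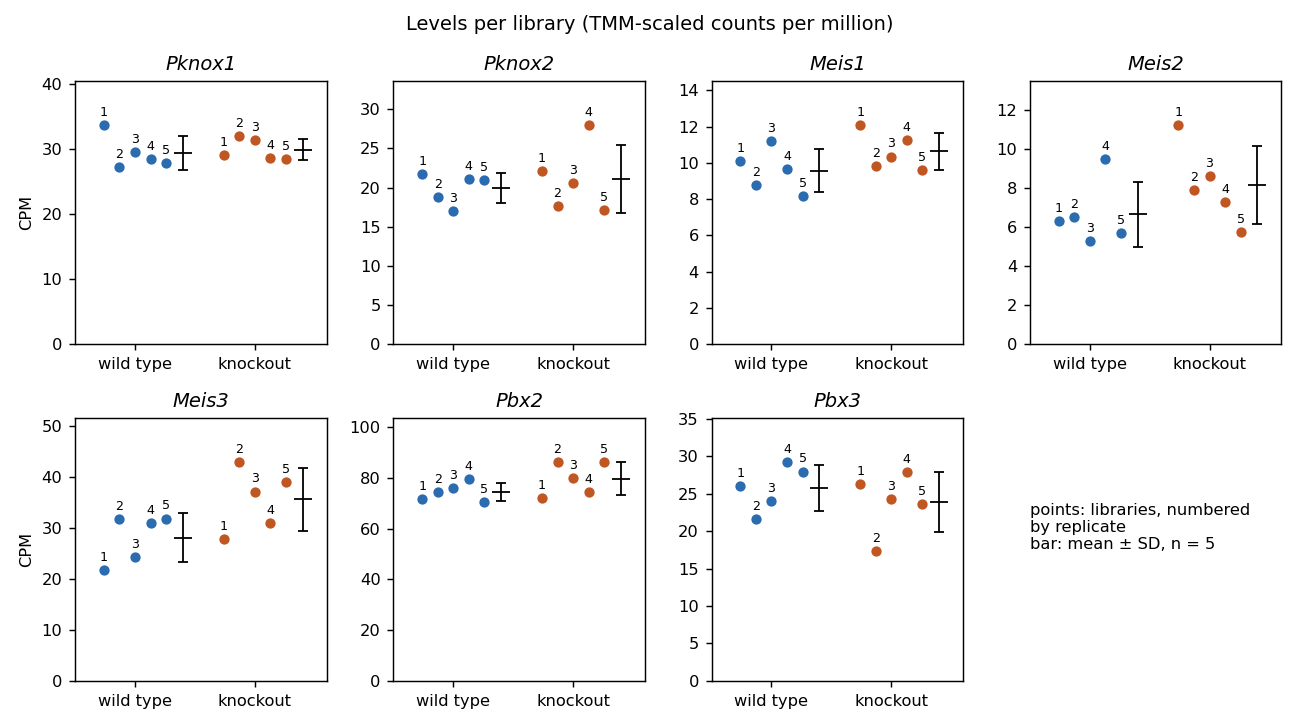
CPM of each of the 7 genes in each library (points, numbered by replicate; blue wild type, orange knockout), with the mean ± SD of 5 libraries as a bar beside them. The groups overlap for every gene, and for Meis3 knockout 2, 3 and 5 lie above all wild-type libraries, at 37.2 to 43.1 CPM against at most 31.9.

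Pknox1, the closest relative of Pknox2 and essential for the early mouse embryo, had nearly the same level in both groups. It was at 33.7, 27.2, 29.6, 28.5 and 27.8 CPM in wild type 1 to 5 and at 29.1, 31.95, 31.4, 28.6 and 28.4 CPM in knockout 1 to 5. Every knockout library lay inside the wild-type range. In the same edgeR fit its log2 fold change came to 0.027 (SE 0.0963, adjusted p = 0.873), with a 95% interval of 0.881-fold to 1.18-fold.

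The ratio of Pknox1 to Pknox2 inside each library does not depend on how libraries are scaled. Per kilobase it was 1.33, 1.23, 1.48, 1.154 and 1.13 in wild type 1 to 5. In knockout 1 to 5 it was 1.13, 1.55, 1.31, 0.873 and 1.41. Pknox1 was thus the more abundant of the pair in all wild-type libraries and in all knockout libraries except knockout 4. The log2 ratio averaged 0.33 ± 0.16 in wild type and 0.30 ± 0.32 in knockout (SD, n = 5 each). The difference of -0.034 was smaller than the spread inside either group (two-sided exact permutation test over all regroupings of 10 libraries, p = 0.865, where the smallest possible is 0.00794). Without knockout 2, 3 and 5 it was -0.35 (exact p = 0.0952), without knockout 4 it was 0.090 (exact p = 0.460) and without wild type 3 it was 0.025 (exact p = 0.897). With merged exon lengths the ratio ranged from 1.98 to 2.59 in wild type and from 1.52 to 2.70 in knockout, so its size, unlike the difference, rests on the length used.

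**Figure D3:**
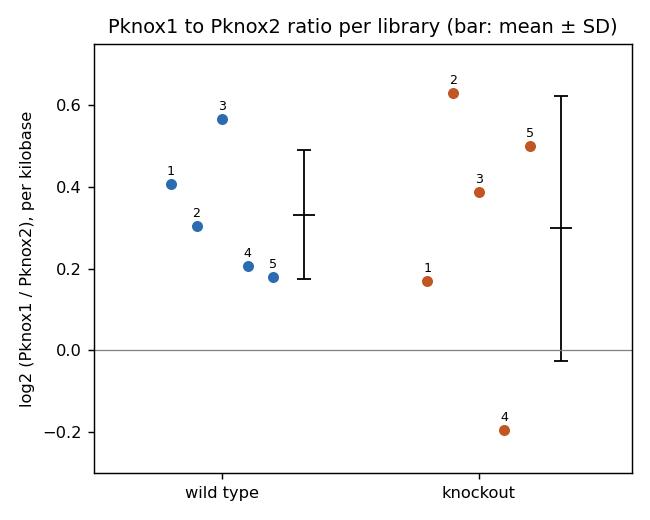
The log2 ratio of Pknox1 to Pknox2 (per kilobase) in each library, as points numbered by replicate, with the mean ± SD of 5 libraries beside them and a line at equal levels. The means are 0.33 in wild type and 0.30 in knockout, and knockout 4 alone lies below 0, at -0.20.

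None of the 7 genes was called between the groups at an adjusted p under 0.05 by edgeR, against 0.0187% of all tested genes. DESeq2 called 0 of 7 (2.07% of all genes) and limma-voom called 0 of 7 (0.0187%). At an unadjusted p under 0.05, 1 of 7 passed in edgeR, where 20.1% of all genes did. No gene of the 7 had groups that did not overlap, which 2.36% of all genes had. The log2 fold change was above 0 for 6 of 7, against 48.3% of all genes, and the median was 0.10 against -0.014 over all genes.

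Meis3 was the gene with the unadjusted p under 0.05. Its level was 21.8, 31.7, 24.3, 31.0 and 31.9 CPM in wild type 1 to 5, and 27.9, 43.1, 37.2, 31.1 and 39.1 CPM in knockout 1 to 5. The groups overlapped through knockout 1 and knockout 4, which lay inside the wild-type range, while knockout 2, 3 and 5 lay above it. In edgeR the log2 difference was 0.34 (SE 0.152, adjusted p = 0.243), with a 95% interval of 1.01-fold to 1.59-fold. The osteoblast and osteoclast markers and the ribosomal protein share were also higher in knockout 2, 3 and 5 than in any other library, and their part in the level of Meis3, or of Pbx2 below, was not tested. The log2 difference of Meis3 was 0.068 without knockout 2, 3 and 5, and -0.00063 (SE 0.206) with a Y-linked covariate. Among the knockout libraries, Y-linked genes reached the wild-type level only in knockout 1 (209 CPM, against 0 to 11.3 CPM in the others). This covariate thus nearly follows the group label, and the fit can hardly separate them. Of the fits run, only limma-voom with sample quality weights called Meis3 (log2 fold change 0.47, adjusted p = 0.0150), a fit that called 39.1% of all genes.

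Meis2 had the next largest difference and the largest spread. In wild type 1 to 5 it was at 6.32, 6.52, 5.29, 9.50 and 5.70 CPM. In knockout 1 to 5 it was at 11.3, 7.90, 8.65, 7.31 and 5.77 CPM. Wild type 4 and knockout 1 were the highest of their groups, and the groups overlapped. In edgeR the log2 difference was 0.30, with an SE of 0.209 and an adjusted p = 0.380, and the 95% interval was 0.895-fold to 1.68-fold. The log2 difference was 0.15 without knockout 1 and 0.46 without wild type 4. With the Y-linked covariate, which nearly follows the group label apart from knockout 1, it was 0.73 and was not called.

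Meis1 stood at 10.1, 8.77, 11.2, 9.67 and 8.19 CPM in wild type 1 to 5, and at 12.1, 9.85, 10.4, 11.3 and 9.62 CPM in knockout 1 to 5. Knockout 1 and knockout 4 lay just above the wild-type range and the other knockout libraries inside it. The edgeR estimate was 0.15 on the log2 scale (SE 0.132, adjusted p = 0.468). The 95% interval was 0.911-fold to 1.35-fold, and the estimate was 0.29 without knockout 2, 3 and 5. The make-up of the Meis group was close in both groups of libraries, as Meis3 held 83.1% ± 3.02 of the summed Meis level per kilobase in wild type and 83.9% ± 4.58 in knockout (SD, n = 5 each). The summed Meis level was 18.4 ± 2.67 CPM per kilobase in wild type and 23.0 ± 2.92 in knockout, with ranges of 14.9 to 20.7 and 19.8 to 26.9 that overlapped.

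Pbx2, the highest of the 7 per kilobase, was at 71.5, 74.4, 76.1, 79.5 and 70.4 CPM in wild type 1 to 5 and at 71.9, 86.4, 79.8, 74.6 and 86.1 CPM in knockout 1 to 5. Knockout 2, 3 and 5 lay above every wild-type library and the other knockout libraries lay inside the wild-type range. Its log2 fold change in edgeR was 0.10 (SE 0.0852, adjusted p = 0.458), with a 95% interval of 0.943-fold to 1.22-fold, and it was -0.021 without knockout 2, 3 and 5. The coefficient of variation was 4.92% in wild type, the lowest of the 7 there, and 8.24% in knockout, where Pknox1 was lower at 5.57%. Counting error alone gives 2.75% and 2.72% for Pbx2.

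Pbx3 was the one gene of the 7 with a log2 fold change below 0. It was at 26.1, 21.6, 24.0, 29.3 and 28.0 CPM in wild type 1 to 5. In knockout 1 to 5 it was at 26.3, 17.4, 24.2, 27.9 and 23.6 CPM. Knockout 2 alone lay outside the wild-type range, below it. The edgeR estimate was -0.11 on the log2 scale (SE 0.139, adjusted p = 0.622), with a 95% interval of 0.751-fold to 1.14-fold, and it turned to 0.072 without knockout 2, 3 and 5. Leaving out single libraries moved it to -0.015 without knockout 2, -0.060 without wild type 4, -0.18 without knockout 4 and -0.17 without wild type 2. The summed level of Pbx2 and Pbx3 was 33.7 ± 1.73 CPM per kilobase in wild type and 34.7 ± 1.30 in knockout (SD, n = 5 each).

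**Figure D4:**
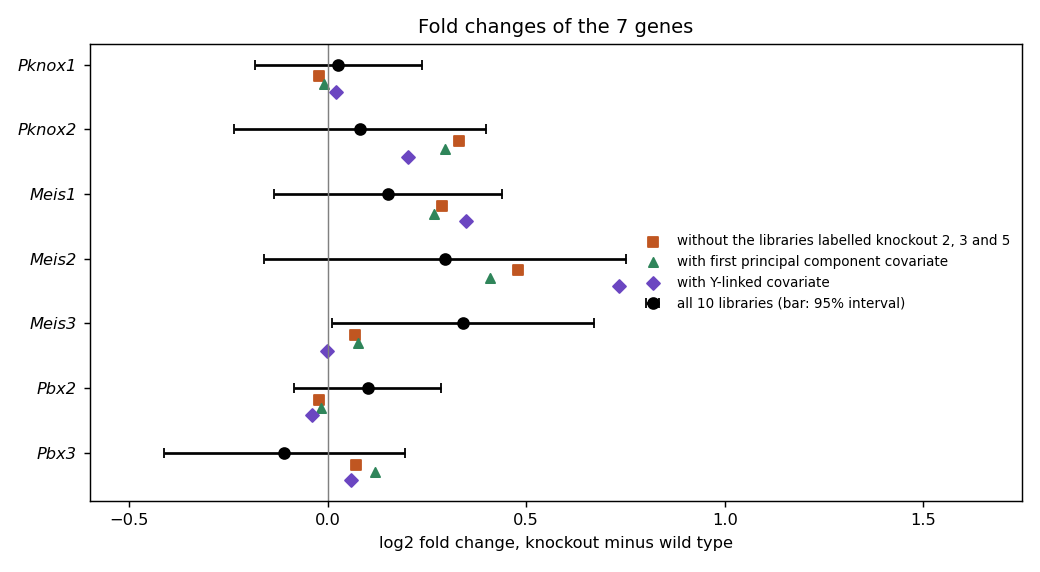
Log2 fold changes (knockout minus wild type) of the 7 genes, with black points and 95% intervals for all 10 libraries. Coloured marks give the value without knockout 2, 3 and 5 and with the first principal component or Y-linked expression as a covariate; for Pbx3 all 3 of these marks lie above 0 while the black point lies at -0.11.

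Inside the knockout group, several of the genes split along the libraries that stood apart. Pknox2, Pbx3 and Meis1 were lower in knockout 2, 3 and 5 than in knockout 1 and 4, and Meis3 and Pbx2 were higher there. These are 5 of 7 genes, and 63.0% of all tested genes split the same libraries one way or the other, so the share is near the background (31.3% all above, 31.7% all below). Pknox1 and Meis2 did not follow this order, although Meis2 spans 206274 bases. Both genes that were higher in knockout 2, 3 and 5 span less than 20 kilobases of the genome, and the 3 that were lower span more than 100 kilobases.

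The same relation to span was seen over all tested genes, measured in each library as the median deviation from each gene's mean over 10 libraries. For the 2231 genes that span over 100 kilobases the median log2 deviation was -0.36, -0.18 and -0.27 in knockout 2, 3 and 5, against 0.19 and 0.17 in knockout 1 and 4. In wild type it was -0.11 in wild type 2 and 0.10 to 0.24 in the other 4 libraries. For the 7198 genes under 20 kilobases it was 0.23, 0.13 and 0.15 in knockout 2, 3 and 5, and -0.094 and -0.078 in knockout 1 and 4. The part that span, or whatever moves with it, has in the values of single genes was not tested.

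**Figure D5:**
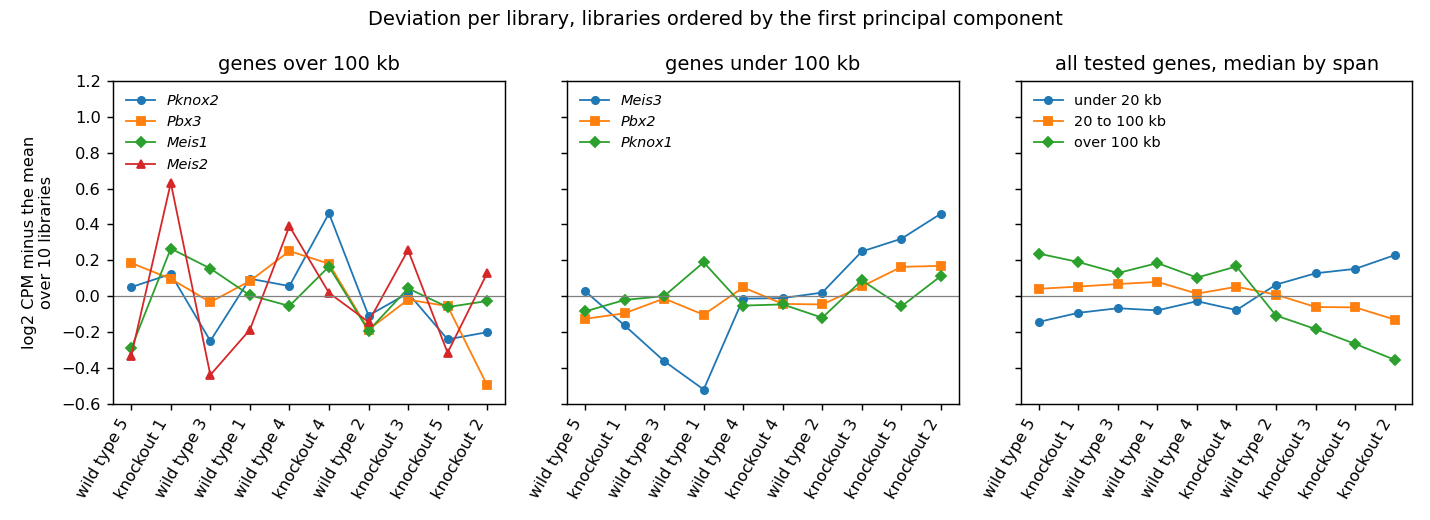
Log2 CPM minus the mean over 10 libraries for the 4 genes spanning over 100 kilobases (left), the 3 under 100 kilobases (middle) and the median of all tested genes by span (right), with libraries ordered by the first principal component. In knockout 2, at the right end, Pbx3 and the long genes as a class lie lowest while Meis3 and the short genes as a class lie highest, with class medians of -0.36 and 0.23.

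The genes most like each member were taken as those with the highest Pearson correlation of log2 CPM over the 10 libraries, after the mean of each group was subtracted, among 14322 genes of at least 1 CPM. For Pknox2 they were Basp1 (r = 0.978), a growth cone protein, the axon guidance receptor gene Robo2 (0.968), Ptp4a1 (0.963), the dynein subunit gene Dync1li1 (0.962) and Oxr1 (0.956). For Pknox1 they were Ikbkb (0.928), which encodes a kinase of the NF-kappaB pathway, and the integrin gene Itga5 (0.883). These values describe 10 libraries of which 3 stand apart, and the closest of so many genes is close by selection.

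The Meis and Pbx genes each had other nearest genes. For Meis1 they were Tox3 (r = 0.962) and Ermn (0.953), for Meis2 Nos2 (0.899) and Trim13 (0.897), and for Meis3 Ece2 (0.957) and Pgs1 (0.951). For Pbx2 they were Crabp2 (0.971), which carries retinoic acid, and Psen2 (0.968). For Pbx3 they were Erich3 (0.978) and the potassium channel gene Kcnh8 (0.961). Each of the 7 genes had a different nearest pair, and no pair held another of the 7. The summed level of 8 spiral ganglion neuron markers is given beside Basp1 and Robo2, which were among the 5 genes nearest to Pknox2. This sum was 1574, 2032, 1048, 2258 and 1247 CPM in knockout 1 to 5 and 1956 to 2894 CPM in wild type. Its part in the level of Pknox2 was not tested. After the mean of each group was subtracted, Pknox2 itself had a correlation of -0.71 with the first principal component.

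The other TALE genes, Hox genes and known partners were read as lists. Of 11 further TALE genes 10 were tested, and none was called by edgeR in either direction, against 0.0187% of all tested genes. Their median log2 fold change was 0.13. At an unadjusted p under 0.05, 2 of 10 passed, near the 20.1% of all tested genes. The smallest p-values belonged to Irx6 (3.23 ± 0.495 CPM in wild type and 5.49 ± 1.82 in knockout), Tgif2 (20.6 ± 1.22 and 24.9 ± 2.62), a repressor of TGF-beta signalling, and Irx3 (112 ± 16.2 and 129.7 ± 13.03), all SD with n = 5 each. The groups overlapped for each of these 3.

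Of the 39 Hox genes, whose proteins share DNA sites with Pbx proteins, 5 passed the filter on low counts. None was called by edgeR, against 0.0187% of all tested genes, and 2 of 5 had an unadjusted p under 0.05, against 20.1%. Hoxa2, which sets the identity of the second pharyngeal arch, was at 5.63 ± 1.08 CPM in wild type and 9.01 ± 2.47 in knockout (log2 fold change 0.68, SE 0.207, adjusted p = 0.214, edgeR). Hoxb2 was at 1.42 ± 0.541 and 2.37 ± 0.820 CPM, and Hoxb3 at 2.13 ± 0.471 and 3.08 ± 0.885 CPM (SD, n = 5 each). The other tested Hox genes had log2 fold changes below 0, with Hoxb4 at 0.843 ± 0.402 and 0.517 ± 0.297 CPM (-0.69, SE 0.448) and Hoxd8 at 0.881 ± 0.172 and 0.788 ± 0.207 CPM (-0.16, SE 0.273). At these low levels a gene can pass the filter through the group in which it is higher, so the tested Hox genes are no sample of all 39.

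Of 9 other partners and regulators 4 were tested and none was called by edgeR, against 0.0187% of all tested genes. An unadjusted p under 0.05 was seen for 1 of 4, Pax6, against 20.1% of all tested genes. Crbn, whose protein cereblon directs MEIS2 to degradation in human cells, was at 36.7 ± 1.54 CPM in wild type and 30.6 ± 5.22 in knockout (log2 fold change -0.26, SE 0.120, adjusted p = 0.250, edgeR). Pbxip1, whose protein binds Pbx proteins and blocks their DNA binding, was at 149 ± 14.1 and 156 ± 11.8 CPM. Pax6, a Meis target gene in the eye, was near the detection limit at 1.05 ± 0.350 and 1.86 ± 0.941 CPM (SD, n = 5 each). The groups overlapped for all of these genes.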

How the data were processed

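RNA of mouse cochleas was sequenced in 10 libraries. Per the submitters' processing notes, HISAT2, featureCounts, limma and build mm10 were used, with no version or role stated; the sources used here do not give the annotation, strand setting or filters. The deposited table holds raw read counts per Entrez gene, whole numbers with 16.6 to 19.4 M per library. Symbols came from RefSeq on GRCm38 (25275 of 27179 IDs) and GENCODE M21 (17 more). Groups follow the genotype labels. Groups were compared with glmQLFTest of edgeR 4.0.16 in R 4.3.3, a quasi-likelihood test, over all 10 libraries, with TMM scaling, filterByExpr (minimum count 10, minimum total 15), Benjamini-Hochberg adjustment over 16018 genes and a threshold of 0.05. The fit was tested on simulated data. Fold changes are knockout minus wild type; an SE is the size of that change over the root of F. Principal components and correlations used log2 CPM with a prior count of 2.

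The genes, lists and alternatives were chosen with earlier results of these data known. Genes named outside the 7 were, per list, called members or else the 3 of smallest p, and per gene the 2 (Pknox2: 5) most correlated. Named outside this rule were the remaining tested Hox genes, Hoxb4 and Hoxd8, the hair cell markers Otof and Pou4f3, and genes that share exonic bases with a member. Alternatives were other scalings, filters and thresholds, DESeq2 1.42.0, limma-voom (limma 3.58.1) with and without quality weights, a replicate block, Y-linked, principal component and surrogate variable (sva 3.50.0) covariates, merged exon lengths for the ratio, and left-out libraries. No column was left unmapped.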

Additional observations from a re-analysis of the deposited data

How the results depend on the processing

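No alternative changed the count of 0 called among the 7 genes except limma-voom with quality weights, which called 1, Meis3. Over the alternatives, 148 of the fold changes of single genes kept their direction and their side of the threshold, 1 passed it and 12 reversed. The 148 include those of the 7 genes at a threshold of 0.1, which repeat the main fit and could not reverse. The reversed values were at most 0.12 in size, though for Pbx3 this was as large as its main estimate of -0.11. Pknox1 turned to -0.0086 in the fit that adds the first principal component and to -0.023 without knockout 2, 3 and 5. Pbx2 turned to -0.018 and -0.021 in those fits and to -0.040 with the Y-linked covariate. Pbx3 turned to 0.12, 0.072 and 0.058 in the same 3 fits and to 0.054 with the surrogate variable. Meis3 was -0.00063 with the Y-linked covariate, and Pknox2 was -0.010 with quality weights and -0.048 without knockout 4 (-0.048 to 0.15 when single libraries were left out). The cause of these turns was not tested. Pknox2 kept its direction but rose from 0.08 to 0.30 with the principal component (edgeR adjusted p = 0.512). With the surrogate variable it was 0.23 (edgeR adjusted p = 0.431). The Y-linked covariate nearly follows the group label, so its fit can hardly separate them.

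The count of called genes, 3 of 16018, was 331 with DESeq2, 6259 with quality weights, 10 with the surrogate variable, 7 at a threshold of 0.1, 1 with the principal component, 1 without knockout 2, 3 and 5, 0 with the Y-linked covariate (293 at an unadjusted p under 0.05) and, with each library removed in turn, 1 to 166, the highest without knockout 1. The replicate block called 1 gene and none of the 7. Correlations of same-numbered deviations ran from -0.38 to 0.51, and 1 of 5 pairs correlated best with its own number. With 5 libraries per group, and knockout 2, 3 and 5 apart from the others, these values cannot decide whether replicate numbers pair the libraries. The paired difference of the Pknox ratio was -0.034 (exact sign-flip permutation p = 0.875). The ratio difference ran from -0.12 to 0.090 when single libraries were left out, reversing without knockout 4 and without wild type 3 (0.025). Depth limits Meis1 and Meis2 most, whose counts give 7.44% to 9.20% counting error per library.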
